A study of Arabidopsis thaliana with 10 samples.

Results

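Gene expression was compared between 2 lines of Arabidopsis thaliana that carry a shortened form of the transgene TaSIN, ΔC26 and ΔC27, and 2 control lines, VC and Col-0. The comparison used 8 of the 10 arrays of the study, chosen by their titles: 4 arrays of the shortened-TaSIN lines and 4 arrays of the controls, 2 per line. In ΔC26 and ΔC27 the constitutively expressed TaSIN has lost its transmembrane motif. VC is a transformed line with the vector but no insert, and Col-0 is the untransformed wild type, so the controls differ from each other in carrying a vector. All lines were sampled as 12-day-old seedlings grown without stress, under a 16 h photoperiod, and nothing else was applied to any group. The remaining 2 arrays, of line FL3 with full-length TaSIN, entered the estimate of the spread and are quoted beside a few genes. The labels call the promoter only constitutive, each line is a transformant of its own, and the 2 arrays of a line are described as separate biological replicates. The annotation names no probe set for TaSIN, and how strongly each line expressed it is therefore unknown here.

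Plant cells whose mitochondria are disturbed change the expression of nuclear genes, a process called mitochondrial retrograde signalling. Its best known targets in Arabidopsis are nuclear genes for alternative respiratory enzymes, mitochondrial chaperones and small mitochondrial proteins, together with detoxification enzymes such as tau-class glutathione S-transferases. Several NAC transcription factors that are anchored in a membrane until they are released carry this signal. Auxin, the growth hormone whose response genes are also described here, is inactivated by GH3 enzymes, which join it to amino acids.

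Values are deposited intensities on a linear scale, and changes are differences in log2(intensity + 16), so a change is understated for dim probe sets. An intensity is the authors' summary of a probe set, and intensities of different probe sets are not compared. Each change was tested with limma, and p-values were adjusted by the Benjamini-Hochberg method over 22746 probe sets at a threshold of 0.05. A change and its standard error (SE) come from that fit. For each probe set it takes the spread between arrays of a line as equal in all lines, so ΔC26 and ΔC27 have the same SE. Where the arrays of a line differ more than the rest, its SE is too small. SEs and p-values of this fit do not measure the spread between lines. Replicate arrays were least alike in ΔC27, where their log2 values differed with an SD of 0.415 over probe sets, against 0.293 for ΔC26, 0.236 for VC and 0.235 for Col-0. A gene is called measured here where the annotation names a probe set for it alone, and other genes may be on the array without a name. Family members were found by patterns in gene symbols and synonyms, so family counts leave out members without such names. Tissue markers that could be named were few. The leaf genes RCA, PSBY, PSAE-1 and LHCB4.1 had control means from 2151 to 5381, and the root-hair expansin genes EXPA7 and EXPA18 means of 11.8 and 20.4. No marker fixed for seeds or pollen had a named probe set.

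The pooled comparison of both lines with both controls was past the threshold in 2972 probe sets, 13.1% of those tested, with 1572 higher (6.91%) and 1400 lower (6.15%). A pooled change can be carried by 1 of the 2 lines. Of the rises, 289 were also past the threshold in ΔC26 and in ΔC27 taken with the same sign, 1 in both with opposite signs, 1039 in ΔC27 alone, 83 in ΔC26 alone and 160 in neither. Of the falls, 155 were past it in each line, 1058 in ΔC27 alone, 23 in ΔC26 alone and 164 in neither. All 4 arrays of ΔC26 and ΔC27 lay on the same side of the control mean in 1515 of the 1572 rises and in 1317 of the 1400 falls. Over all probe sets 39.6% had all 4 arrays on 1 side, and 14.4% had all 4 arrays beyond all 4 control arrays. Since the 4 arrays also make up the pooled test, these counts describe the calls and are no second test of them.

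The genes described first below belong to the response common to both lines. A probe set was counted there when it was past the threshold in the pooled comparison, in ΔC26 alone and in ΔC27 alone with the same sign, and when all 4 arrays lay beyond all 4 control arrays. Separation of the 2 sides in members of the common response was thus required by the choice and is no further evidence. ΔC26 alone was past the threshold in 617 probe sets (2.71%), 435 higher (1.91%) and 182 lower (0.8%). ΔC27 alone was past it in 3797 (16.7%), 1866 higher (8.2%) and 1931 lower (8.49%). The common response held 436 probe sets, 1.92% of those tested, 289 higher (1.27%) and 147 lower (0.646%). At least 2-fold changes numbered 115 among the rises and 56 among the falls, and at least 4-fold changes 28 and 2. The annotation named exactly 1 gene for 157 of the rises and 74 of the falls. RNA came from seedlings, in which fewer cells of a type and less RNA per cell cannot be told apart.

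**Figure D1:**
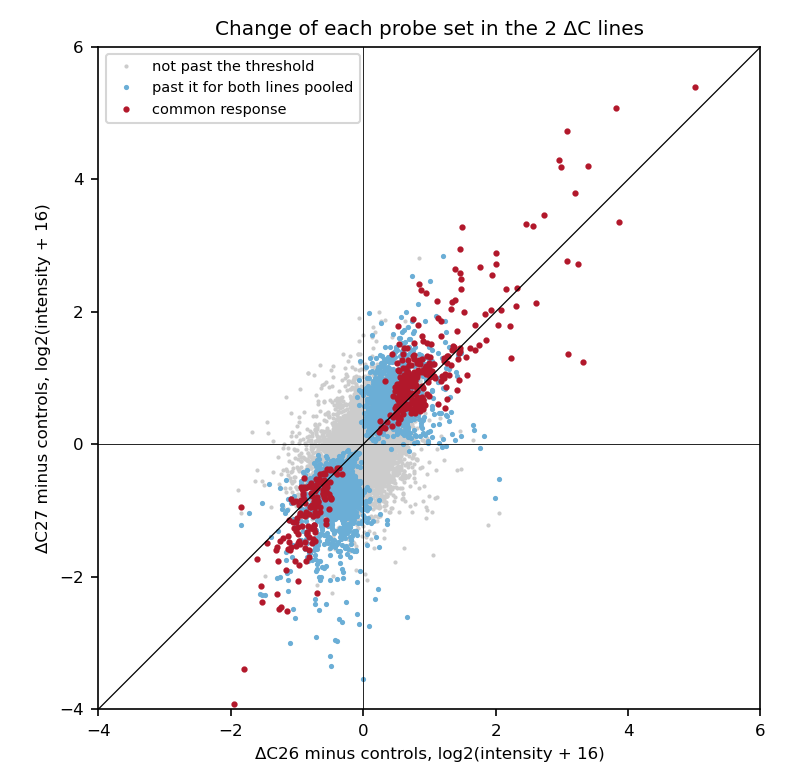
Change of every probe set on the log2(intensity + 16) scale in ΔC26 (horizontal axis) and ΔC27 (vertical axis) against the mean of the same 4 control arrays, with a line of equal change. Grey points are not past the threshold in the pooled comparison, blue points are, and the 436 red points are the common response. Both axes use the same controls, so part of their agreement is shared.

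The 2 largest rises of the common response with a named gene were those of AT2G21640 and AT2G04050, both on the list of mitochondrial retrograde genes. AT2G21640 (UPOX), a nuclear gene raised by oxidative stress and disturbed mitochondria, had intensities of 29.2 and 48.7 in VC, 35.7 and 57.3 in Col-0, 1877 and 1814 in ΔC26 and 2594 and 2262 in ΔC27. The lowest of the 4 arrays of the shortened-TaSIN lines stood far above the highest control array, at 1814 against 57.3. The change was 5.21 ± 0.14 (SE), or 36.9-fold (limma, Benjamini-Hochberg adjusted p = 1.5e-07), and the change did not differ past the threshold between the lines (adjusted p = 0.36). In FL3 the gene was at 2075 and 2043, within the range of the other 4 transgenic arrays.

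AT5G51440 encodes a small heat shock protein of the mitochondrion. Its intensities were 15.5 and 24.3 in VC, 20.4 and 23.9 in Col-0, 458 and 240.2 in ΔC26 and 185 and 279 in ΔC27. The change was 2.98 ± 0.21 (adjusted p = 8.3e-05). AT5G09570 (At12Cys), a small cysteine-rich mitochondrial protein, had intensities of 25.3 and 44.1 in VC, 69.3 and 74.6 in Col-0, 133 and 214 in ΔC26 and 318 and 322 in ΔC27. Here the control lines themselves stood apart, with both Col-0 arrays above both VC arrays, and the 4 arrays of ΔC26 and ΔC27 were higher still. The change was 1.91 ± 0.27 (adjusted p = 0.0024). AT2G41730, a gene of unknown function that responds to low oxygen, was already bright in the controls, at 228 and 348 in VC and 368 and 351 in Col-0. It reached 1129 and 1230.2 in ΔC26 and 1344 and 1250.1 in ΔC27. Its change was 1.90 ± 0.15, with 1.84 in ΔC26 and 1.97 in ΔC27. Its probe set carries the suffix that marks probes shared with other sequences, so it may read more than 1 gene.

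The external alternative NADH dehydrogenases of the NDB type let electrons enter the respiratory chain without complex I. In the pooled comparison 3 of the 4 measured NDB genes rose, against 6.91% of all probe sets. NDB3 had intensities of 14.9 and 18.0 in VC, 15.1 and 16.6 in Col-0, 51.5 and 35.3 in ΔC26 and 164 and 129 in ΔC27, with a change of 1.60 ± 0.13 (adjusted p = 0.00018). It belongs to the common response, but the rise was 0.87 in ΔC26 and 2.33 in ΔC27, a difference between the lines that passed its own test (adjusted p = 0.0053). NDB2 rose by 1.06 ± 0.18 from a control mean of 105 to 202 ± 30.3 (SD, n = 2) in ΔC26 and 274 ± 53.5 in ΔC27. NDB4 rose by 0.77 ± 0.11, from 10.4 to 17.1 and 46.5, and its lines differed (adjusted p = 0.02). In ΔC26 alone NDB2 and NDB4 were not past the threshold (adjusted p = 0.079 and 0.25). The call of NDB4 ended when the spread between lines was counted, in a fit of 2 groups of 4 arrays (adjusted p = 0.085). NDB1 and the chloroplast-and-mitochondrion enzyme NDC1 had differences of 0.25 and 0.067 that did not pass.

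In the list compiled for the mitochondrial retrograde response, 9 of 19 genes had a named probe set, and all 9 rose in the pooled comparison, against 6.91% of all probe sets. The median change of the 9 was 2.92, against 0.0032 over all probe sets. In all 9 the 4 arrays lay above the control mean, and 7 belonged to the common response. Members of the list were put together with earlier results of these data known, so the count describes them and is no independent evidence of a direction. The list holds AT2G21640, AT5G51440, AT5G09570, AT2G41730, NDB2 and NDB4 from above, together with AT2G04050, AT2G32020 and GSTU25, and not NDB3.

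**Figure D2:**
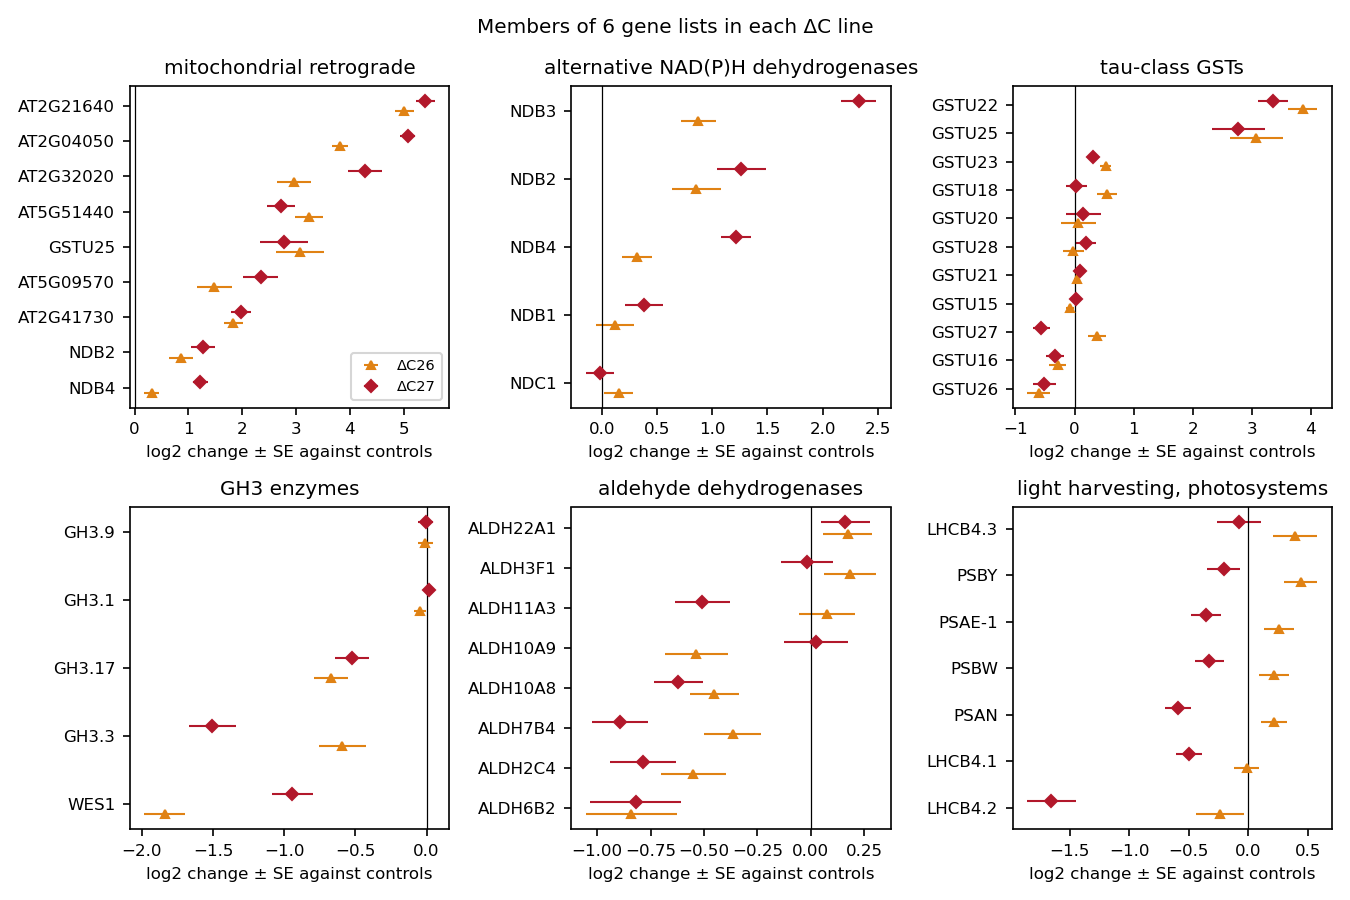
Change against the controls on the log2(intensity + 16) scale, with its standard error, of each measured member of 6 gene lists in ΔC26 (triangles) and ΔC27 (diamonds). The fit gives both lines the same standard error. Members of the retrograde list lie to the right of 0 in both lines, while photosystem genes lie to the left in ΔC27 and, in 5 of 7, to the right in ΔC26.

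Among the 20 largest common rises were 1 transporter of the MATE type and 2 tau-class glutathione S-transferases. AT2G04050, a MATE-type efflux transporter, had intensities of 14.9 and 17.8 in VC, 16.4 and 20.7 in Col-0, 527 and 392 in ΔC26 and 1133 and 1083 in ΔC27. Both ΔC27 arrays were above both ΔC26 arrays, and the changes of 3.82 in ΔC26 and 5.07 in ΔC27 differed (adjusted p = 0.0065). FL3 was at 914 and 1019.5, between the 2 lines. GSTU22, a tau-class glutathione S-transferase, had intensities of 137 and 98.4 in VC, 97.1 and 154 in Col-0, 1813 and 2098 in ΔC26 and 1369 and 1374 in ΔC27. In this gene ΔC26 was the higher line, and the lines did not differ past the threshold (adjusted p = 0.42). The change was 3.61 ± 0.21, 12.2-fold, with an adjusted p of 2.4e-05. GSTU25 was at 64.7 and 51.8 in VC, 32.6 and 93.3 in Col-0, 655 and 553 in ΔC26 and 495 and 475 in ΔC27. Its change was 2.92 ± 0.37 (adjusted p = 0.0016).

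Of 11 measured tau-class genes, 3 rose and 1 fell, against 6.91% and 6.15% of all probe sets, and the median change was 0.087. The 3 that rose all belonged to the common response, which held 1.27% of all probe sets as rises. GSTU23, the next protein-coding gene to GSTU22 in the annotation, rose by 0.42 ± 0.072 at intensities near the lower end of the scale, from a control mean of 11.1 to 23.0 and 17.7. GSTU26 fell by 0.56 (log2) from 35.4 to 16.1 and 18.4 (adjusted p = 0.045). Its call ended in 13 of 20 alternative settings, including the fit that counts the spread between lines. GSTU20, GSTU21 and GSTU28 had differences of 0.11, 0.067 and 0.087 that did not pass. Whether probe sets of such related genes also read each other was not tested.

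Several enzymes outside these lists had as large a rise. AT1G17960, a threonyl-tRNA synthetase, had intensities of 11.7 and 12.8 in VC, 12.3 and 11.4 in Col-0, 181 and 123 in ΔC26 and 225 and 298 in ΔC27, a change of 2.93 ± 0.16 (adjusted p = 1.9e-05). AT5G56350, a pyruvate kinase, the enzyme of the last step of glycolysis, was at 199 and 227 in VC, 185 and 227 in Col-0, 781 and 1011 in ΔC26 and 1595 and 1358 in ΔC27. That is a change of 2.37 ± 0.13, or 5.16-fold, in a gene that was not dim in any line. AT1G24430, an acyltransferase of the BAHD family, was at 35.0 and 30.3 in VC, 31.7 and 47.5 in Col-0, 245 and 235 in ΔC26 and 209 and 201 in ΔC27. The 4 arrays of the shortened-TaSIN lines lay within 201 to 245, while FL3 was at 52.2 and 43.7. AT2G03200, an aspartyl protease gene, rose by 2.26 ± 0.21, from 54.5 to 248 and 397.

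AT2G32020, an acetyltransferase of the GNAT type, had intensities of 28.1 and 22.0 in VC, 26.99 and 33.6 in Col-0, 362 and 285 in ΔC26 and 1375 and 501 in ΔC27. The ΔC27 arrays differed widely from each other. The change was 3.62 ± 0.26 (adjusted p = 8.3e-05). AT2G18190 and AT1G43910 encode ATPases of the AAA type. AT2G18190 was at 9.07 and 10.1 in VC, 9.16 and 7.25 in Col-0, 289.9 and 127 in ΔC26 and 567 and 725 in ΔC27, with changes of 3.07 in ΔC26 and 4.72 in ΔC27 that differed (adjusted p = 0.021). AT1G43910 rose by 2.02 ± 0.16, from 98.3 to 284 and 718, and its lines differed as well (adjusted p = 0.024). AT2G18180, the gene beside AT2G18190, which encodes a Sec14-type lipid transfer protein, rose by 2.21 ± 0.11 from 9.22 to 53.7 and 178.

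The remaining genes of the 20 largest common rises have no role stated here: AT2G20720 rose by 3.59, AT1G05060 by 2.34, AT1G21520 by 2.25, AT1G03660 by 2.05 and AT2G41445 by 2.03. AT1G05060 was at 785 ± 181 in ΔC26 and 792 ± 2.57 in ΔC27 (SD, n = 2 each), against 143 in the controls. AT2G41445 was near the lower end of the scale in the controls, at 7.14 and 7.36 in VC and 8.37 and 7.64 in Col-0, and was at 60.2 and 39.3 in ΔC26 and 125 and 128 in ΔC27. FL3 was at 7.44 and 6.17, at the level of the controls. Over the 20 rises the adjusted p ran from 1.5e-07 to 0.0024, and all 20 passed whichever of the 8 arrays was left out, in the fit of 2 groups and with line as a random block. The 20 were picked on the same arrays, so their passing describes them and is no further test. The rise was larger in ΔC27 than in ΔC26 in 15 of the 20, and past the test of the difference between lines in 6.

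**Figure D3:**
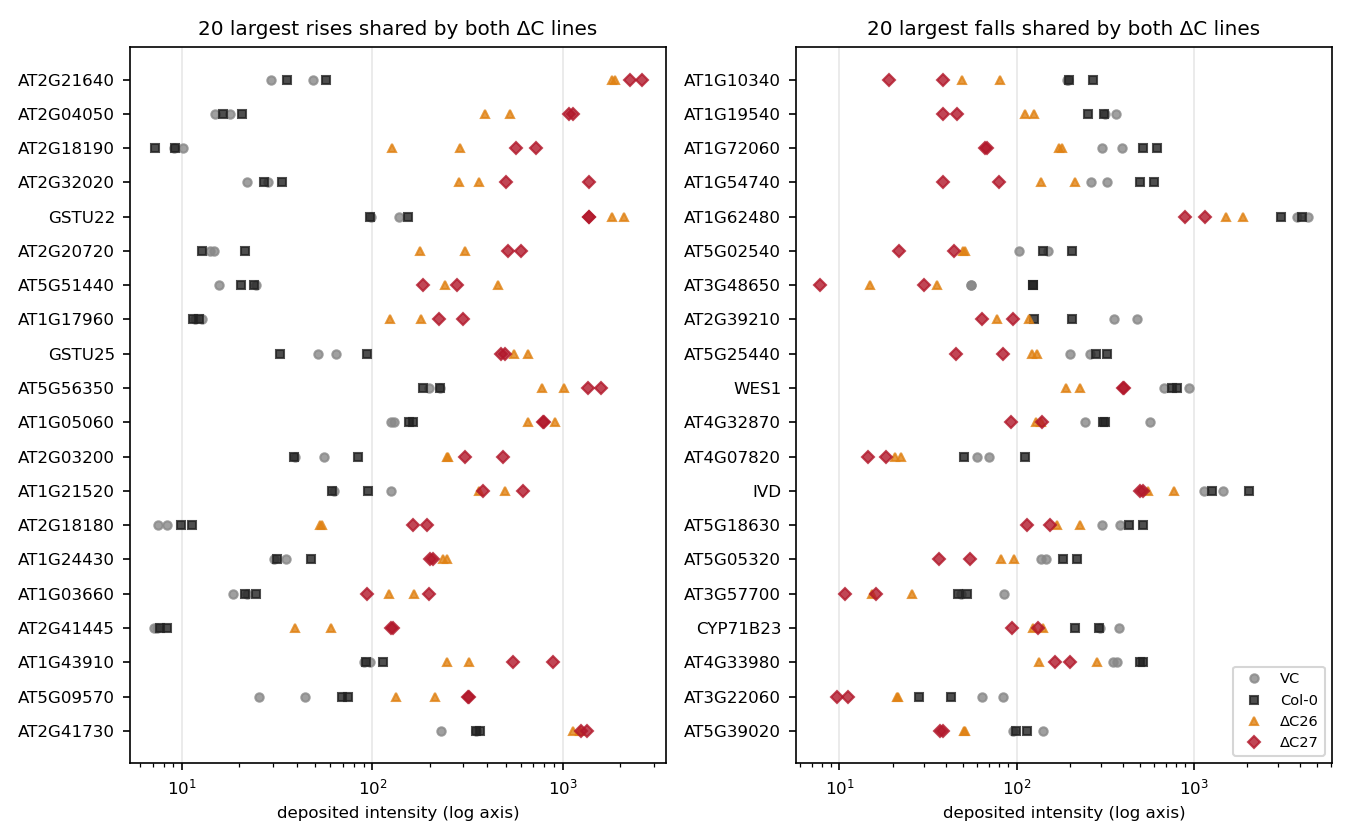
Deposited intensity in each array (log axis) of the 20 largest rises and 20 largest falls of the common response, ordered by size of the change, with 2 points per line for VC, Col-0, ΔC26 and ΔC27. In every gene shown all 4 points of ΔC26 and ΔC27 lie on 1 side of all 4 control points, which the choice of genes required.

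Among genes that were bright in the controls, those past a fixed level that 3644 probe sets reached, the largest common rises after AT2G41730 were those of AT3G21770, AT4G33666, AT5G01870 and TIL. AT3G21770, a class III peroxidase of the cell wall, was at 371 and 284 in VC, 333 and 475 in Col-0, 995 and 947 in ΔC26 and 1812 and 1568 in ΔC27, a change of 1.79 ± 0.14 (adjusted p = 0.00014). TIL, a lipocalin raised by heat and cold that protects membranes from oxidation, was at 369.6 and 556 in VC, 451 and 516 in Col-0, 947 and 1298 in ΔC26 and 798 and 1144 in ΔC27. Its change was 1.11 ± 0.18 (adjusted p = 0.0047). AT5G01870, a lipid transfer protein, rose by 1.17 ± 0.16 from 351, and AT4G33666, whose product has no known role, by 1.77 ± 0.16 from 258. In AT4G33666 the control lines stood apart, at 309 and 366 in VC and 198 and 161 in Col-0. LEA4-5, a late embryogenesis abundant protein that protects dry cells, rose in both lines from a low level, from 12.3 to 32.8 and 24.8, a change of 0.66 ± 0.076 (adjusted p = 0.0011). Of 8 genes on the list for abscisic acid and drought it was the only 1 with a named probe set.

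Plant defensins, small antifungal peptides, moved in both directions. The symbol pattern took in PDF1A and PDF1B, which encode peptide deformylases and were set aside after the values were known. Of the other 13, 2 rose and 4 fell, against 6.91% and 6.15% of all probe sets. PDF2.1 belongs to the common response and rose by 1.71 ± 0.15, from 86.5 to 351 ± 32.4 in ΔC26 and 288 ± 65.8 in ΔC27 (SD, n = 2 each). PDF2.5 rose by 1.24 ± 0.32, but its call (adjusted p = 0.034) ended in 11 of 20 settings and in each line alone. The falls were in PDF1.2b, PDF1.4, PDF1.2 and LCR66, none of them past the threshold in ΔC26, where the changes were -0.49, -0.69, -0.17 and -0.59, against -3.34, -1.76, -1.59 and -0.88 in ΔC27. When the spread between lines was counted, PDF1.2b, PDF1.4 and PDF1.2 did not pass (adjusted p = 0.14, 0.073 and 0.24). The call of PDF1.2 ended in 14 of 20 settings. The probe set of PDF1.2b carries the suffix that marks shared probes, so it may read more than 1 gene.

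The falls common to both lines had the same median size as the rises, 0.87, but fewer reached a 4-fold change. The largest was that of AT1G10340, an ankyrin-repeat protein gene. Its intensities were 194 and 195 in VC, 198 and 272 in Col-0, 80.2 and 49.2 in ΔC26 and 38.6 and 19.0 in ΔC27, a change of -1.96 ± 0.19 (adjusted p = 0.00046). AT1G19540, which resembles isoflavone reductases, was at 315 and 364 in VC, 312 and 254 in Col-0, 111 and 125 in ΔC26 and 46.1 and 38.3 in ΔC27. Both ΔC27 arrays were below both ΔC26 arrays, which were below every control, and the lines differed (adjusted p = 0.0074). AT1G72060, a protease inhibitor gene, was at 302 and 392 in VC, 619.7 and 519 in Col-0, 174 and 180.4 in ΔC26 and 66.0 and 68.5 in ΔC27, with changes of -1.25 in ΔC26 and -2.46 in ΔC27. AT1G54740 showed a like pattern, at 419.6 in the controls, 176 in ΔC26 and 59.2 in ΔC27. Its control lines stood apart, at 322 and 263 in VC and 496 and 597 in Col-0, and its higher ΔC26 array was at 215.

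AT1G62480 was bright in every line. Its intensities were 4407 and 3854 in VC, 3134 and 4085 in Col-0, 1906 and 1532 in ΔC26 and 899 and 1158 in ΔC27, and the change was -1.53 ± 0.16 (adjusted p = 0.00077). IVD, the mitochondrial isovaleryl-CoA dehydrogenase of leucine breakdown, was at 1457 and 1146 in VC, 1267 and 2060.3 in Col-0, 778 and 555 in ΔC26 and 521 and 495 in ΔC27. The change was -1.30 ± 0.18 (adjusted p = 0.0024). ALDH6B2, the mitochondrial methylmalonate-semialdehyde dehydrogenase of valine breakdown, fell by 0.83 from a control mean of 2219.6 to 1220.4 and 1250.2 (adjusted p = 0.014). In ΔC26 alone ALDH6B2 did not pass (adjusted p = 0.073), and its pooled call ended without VC replicate 1 or ΔC26 replicate 2.

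Of 8 aldehyde dehydrogenase genes, enzymes that turn reactive aldehydes into acids, 4 fell and 0 rose, against 6.15% and 6.91% of all probe sets, with a median change of -0.40. Besides ALDH6B2 these were ALDH2C4 (-0.67 ± 0.13), ALDH7B4 (-0.63 ± 0.11) and ALDH10A8 (-0.54 ± 0.094). None of the 4 was past the threshold in ΔC26 alone (adjusted p from 0.073 to 0.18), and all 4 were in ΔC27. The call of ALDH7B4 ended when the spread between lines was counted, both in the fit of 2 groups (adjusted p = 0.079) and with line as a random block (adjusted p = 0.1). ALDH10A8 lost its call with the random block (adjusted p = 0.054), and both lost it against VC alone. ALDH22A1 and ALDH3F1 had differences of 0.17 and 0.083 that did not pass.

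Of 16 genes on the auxin response list 4 had a named probe set. Of these, 3 fell (WES1, GH3.3 and IAA29) and 0 rose, against 6.15% and 6.91% of all probe sets. This and the other lists and families were chosen with earlier results of these data known, so such counts are no independent evidence of a direction. WES1, a GH3 enzyme that joins auxin to amino acids, had intensities of 678 and 937 in VC, 806 and 756 in Col-0, 190.1 and 229 in ΔC26 and 407 and 398 in ΔC27. This was 1 gene of the common falls in which ΔC26 moved further than ΔC27, by 1.84 against 0.94 on the log2 scale, and the lines differed (adjusted p = 0.025). The pooled change was -1.39 ± 0.12 (adjusted p = 0.00023). GH3.17, another auxin-conjugating enzyme, was at 161 and 177 in VC, 160.2 and 149.9 in Col-0, 97.3 and 93.8 in ΔC26 and 101 and 114 in ΔC27. Its change of -0.60 ± 0.10 (adjusted p = 0.0043) was small, with no difference between lines past the threshold (adjusted p = 0.63). GH3.3 fell by 1.05, from 443 to 275 and 140.3, did not pass in ΔC26 alone (adjusted p = 0.095) and lost its call when the spread between lines was counted (adjusted p = 0.078).

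GH3.9 and GH3.1 lay near the lower end of the scale in all lines, with differences of -0.0075 and -0.016, so that 3 of 5 measured GH3 genes fell, against 6.15% of all probe sets. WES1 and GH3.3 are counted both here and among the auxin response genes. Among 7 measured Aux/IAA repressor genes, IAA29 alone passed, against 13.1% of all probe sets. It was at 301 and 247 in VC, 339 and 207 in Col-0, 111 and 96.0 in ΔC26 and 27.04 and 101 in ΔC27, a change of -1.63 ± 0.28 (adjusted p = 0.0054), with 1 ΔC27 array far below the other 3, and not past the threshold in ΔC26 alone (adjusted p = 0.086). HAT2, a homeobox factor of the auxin and shade response, had a difference of -0.49 that did not pass, with 0.13 in ΔC26 and -1.11 in ΔC27.

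Membrane receptors and kinases were represented among the 20 largest common falls by AT5G39020, a receptor-like kinase of the malectin type (-1.09 ± 0.13), AT3G22060, a secreted protein related to cysteine-rich receptor kinases (-1.10 ± 0.12), and the kinase genes AT3G57700 (-1.16 ± 0.16) and AT5G25440 (-1.40 ± 0.16). AT5G39020 was at 96.1 and 140.5 in VC, 114 and 99.5 in Col-0, 50.5 and 51.3 in ΔC26 and 38.7 and 37.1 in ΔC27. These genes were named for the size of their change and not as a class, and kinases were not tested as one. Further falls were those of AT4G07820, which is related to the pathogenesis protein PR-1 (-1.31 ± 0.18), AT5G18630, a lipase (-1.23 ± 0.14), AT2G39210, a transporter of the major facilitator type (-1.43 ± 0.19), and the cold-regulated gene AT4G33980 (-1.12 ± 0.19). In AT2G39210 the control lines stood apart, at 357 and 477 in VC and 126 and 207 in Col-0. Its call ended against Col-0 alone and with line as a random block (adjusted p = 0.061).

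CYP71B23 was at 296 and 381 in VC, 214 and 293 in Col-0, 142 and 124 in ΔC26 and 94.6 and 132 in ΔC27, a change of -1.15 ± 0.16 (adjusted p = 0.0025), and CYP71B34 fell by 0.78 from 48.9 to 24.4 and 19.3. Both belong to the cytochrome P450 family, of which 0 of 24 measured genes rose and 3 fell, against 6.91% and 6.15% of all probe sets. The third, CYP71B24, had -0.40 ± 0.11 and lost its call in 13 of 20 settings. The other genes of the 20 largest common falls were AT5G02540 (-1.52), AT3G48650 (-1.46), AT4G32870 (-1.36) and AT5G05320 (-1.21). In AT3G48650 the control lines stood apart, at means of 55.1 in VC and 124 in Col-0. Adjusted p over the 20 ran from 3.6e-05 to 0.0062, and all 20 passed whichever of the 8 arrays was left out and in the fit of 2 groups. With line as a random block 19 of the 20 passed, and against VC alone AT3G48650 and AT4G33980 lost the call. As with the rises, the 20 were picked on the same arrays, so their passing is no further test. The fall was larger in ΔC27 in 19 of the 20, and past the test of the difference between lines in 4.

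Of 14 measured glutaredoxins of the CC type, which act with TGA transcription factors, 1 passed, against 13.1% of all probe sets, AT3G62950, which fell by 1.77 from 163 to 68.8 and 17.3. It was not past the threshold in ΔC26 alone (adjusted p = 0.1). The other 13 had differences from -0.62 for GRX480 to 0.16 for AT1G06830. GAT1_2.1, a glutamine amidotransferase-like gene, was the only 1 of 7 genes on the dark and sugar starvation list with a named probe set. It fell by 1.91 from 594 to 173 ± 10.7 in ΔC26 and 101 ± 7.86 in ΔC27 (SD, n = 2 each). Its control arrays ran from 321 to 998, and ΔC26 alone did not pass (adjusted p = 0.0503). Of 50 UDP-glycosyltransferase genes, 5 rose and 2 fell, shares near the 6.91% and 6.15% of all probe sets, and 0 belonged to the common response, against 1.92% of all. UGT73B4 rose by 1.09 ± 0.27 and UGT72E1, which acts on monolignols, fell by 0.91. UGT73B4 lost its call without any 1 of 4 arrays.

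Among 4 measured genes for cold and dehydration proteins, the dehydrin LTI30 rose by 1.00 ± 0.27 and COR15A fell by 0.88, while COR47 and COR15B differed by 0.53 and 0.37, neither past the threshold. COR15B rose by 1.00 in ΔC26 (adjusted p = 0.043), while its -0.26 in ΔC27 did not pass (adjusted p = 0.47). The lines differed in COR15B (adjusted p = 0.03). Of 3 measured genes of the unfolded protein response, only the calreticulin gene CRT1b passed, against 13.1% of all probe sets. It rose by 0.48 ± 0.13. LTI30, COR15A and CRT1b did not pass when the spread between lines was counted (adjusted p = 0.061, 0.083 and 0.085). Among 18 expansins, which loosen cell walls, 2 rose and 2 fell, against 6.91% and 6.15% of all probe sets, with 0.61 for EXPA15, 0.47 for EXPA4, -0.63 for EXPA16 and -1.17 for EXPA8. None of the 4 passed in ΔC26 alone (adjusted p from 0.085 to 0.78) or with line as a random block (adjusted p from 0.064 to 0.28). EXPA15 lost its call in 9 of 20 settings, EXPA4 in 7, EXPA16 in 5 and EXPA8 in 1. Of 9 measured xyloglucan endotransglucosylase genes 0 passed, against 13.1% of all probe sets. WRKY22, a transcription factor of the defence response, was the only 1 of 7 WRKY genes past the threshold, against 13.1% of all probe sets. WRKY22 had a change of -0.89 ± 0.19. It did not pass in ΔC26 alone (adjusted p = 0.12), and its pooled call ended with line as a random block (adjusted p = 0.056), against VC alone and without VC replicate 1. WRKY53 had a larger difference of -1.44 that did not pass, at 255 in the controls and 47.6 and 187 in ΔC26 and ΔC27.

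Reference genes gave differences of 0.036 for AT2G28390 and -0.049 for AT4G34270, neither past the threshold, and the clock gene GI one of -0.12. The lists for flavonoid synthesis, senescence and oxidative stress had 1 measured gene each, none past the threshold, and that for salicylate defence had 0. The root-hair genes EXPA18 and EXPA7 had differences of 0.52 and 0.42 that did not pass (adjusted p = 0.06 and 0.2). Of 7 light-harvesting and photosystem genes, 1 was past the threshold in the pooled comparison, against 13.1% of all probe sets. This was LHCB4.2, an antenna protein of photosystem II, with -0.95 ± 0.17. That call ended in the fit of 2 groups (adjusted p = 0.16), with line as a random block (adjusted p = 0.19) and against VC alone. It was at 1611 in the controls, 1344 ± 119.9 in ΔC26 and 503 ± 143 in ΔC27 (SD, n = 2 each), and the lines differed (adjusted p = 0.017). PSAN had 0.21 in ΔC26 and -0.59 in ΔC27, a difference between the lines that passed (adjusted p = 0.014). LHCB4.1 had -0.013 and -0.50, and the lines did not differ past the threshold (adjusted p = 0.069). These shoot and root genes bear on the makeup of the seedlings, and their part in the other results was not tested.

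The direct test of ΔC26 against ΔC27 passed in 670 probe sets, 2.95% of those tested, 483 higher in ΔC26 (2.12%) and 187 lower (0.822%). In the common response 30 of 289 rises and 12 of 147 falls were among them, and the change was larger in ΔC27 in 196 rises and 105 falls. The median size of the common rises was 0.784 in ΔC26 and 0.999 in ΔC27, and of the common falls 0.79 and 0.944. Some pooled calls hid a change in 1 line. ECS1, a cell wall protein gene, was at 3195 and 4514 in VC, 6185 and 5834 in Col-0, 4817 and 4345 in ΔC26 and 565 and 893 in ΔC27, so that ΔC26 lay within the range of the controls and ΔC27 far below it. AT1G66100, a thionin gene, was at 181 and 187 in VC, 182 and 288 in Col-0, 352 and 319.6 in ΔC26 and 24.3 and 16.7 in ΔC27, higher than all controls in ΔC26 and lower than all in ΔC27, with the rise in ΔC26 not past the threshold (adjusted p = 0.13). AT5G37140 was at 8.56 and 9.99 in VC, 9.89 and 8.44 in Col-0, 9.89 and 11.6 in ΔC26 and 74.7 and 92.5 in ΔC27, with ΔC27 past the threshold and ΔC26 not (adjusted p = 0.69). The pooled calls of ECS1, AT1G66100 and AT5G37140 ended in the fit of 2 groups (adjusted p = 0.24, 0.5 and 0.19).

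AT4G26470, a calcium-binding protein of the EF-hand type, differed in degree. It was at 30.3 and 23.0 in VC, 26.1 and 44.7 in Col-0, 130.1 and 62.3 in ΔC26 and 406 and 247 in ΔC27, higher than the controls in all 4 arrays, with changes of 1.21 in ΔC26 and 2.85 in ΔC27 that differed (adjusted p = 0.03). AT5G48570 (ROF2), a heat-induced immunophilin, was the reverse case, at 31.1 in the controls, 115 ± 15.7 in ΔC26 and 35.3 ± 4.83 in ΔC27 (SD, n = 2 each). Its pooled call also ended in the fit of 2 groups (adjusted p = 0.19).

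A further comparison set ΔC26 against VC and ΔC27 against Col-0, so that the 2 mean differences share no array. Both tests took their spread from the same fit of all arrays, so their calls are not independent. They passed in 222 probe sets (0.976% of those tested) and 2933 (12.9%). Called in both with the same sign were 128, 105 higher and 23 lower, and 6 had opposite signs. The 128 were 57.7% of the ΔC26 list and 4.36% of the ΔC27 list, and 125 of them belonged to the common response defined with all controls. VC and Col-0 differed from each other in 6 probe sets (0.0264%), 5 higher in VC (0.022%) and 1 lower (0.0044%), with 1594 at an unadjusted p under 0.05. None of the 40 leading genes was among the 6, which says little, since so few probe sets passed. The largest difference between VC and Col-0 among the 40 was 1.27 on the log2 scale, in AT2G39210.

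The size of the common response rested on single arrays. It fell from 436 to 54 probe sets without ΔC26 replicate 2 and rose to 860 without ΔC26 replicate 1. Without a control array it was 146 (VC replicate 1), 184 (VC replicate 2), 148 (Col-0 replicate 1) or 169 (Col-0 replicate 2), and without ΔC27 replicate 1 or 2 it was 610 or 537. The calls in ΔC26 alone moved in the same way, from 617 to 71 without ΔC26 replicate 2 and 1727 without ΔC26 replicate 1. Of the 40 leading genes 18 stayed in the common response without ΔC26 replicate 2, and 25 to 40 without any other array. These genes were picked for the size of their pooled change on the same arrays. Their passing with an array left out is therefore no test of the pooled comparison. Its count over all probe sets was 1747 without VC replicate 1, 1901 without VC replicate 2 and 1558 without Col-0 replicate 1, and lay between 2022 and 3723 without the others. With the spread between lines counted, in a fit of 2 groups of 4 arrays, the pooled count was 1033 (4.54% of probe sets), and with line as a random block 660 (2.9%). The fit of 2 groups takes the 4 arrays of a side as independent, though they come from 2 lines, so it counts that spread only in part. The fit of 2 groups called 283 of 289 common rises and 132 of 147 common falls. With line as a random block 277 of the common rises and 114 of the common falls were called. Members of the common response were required to have all 4 arrays beyond all 4 control arrays. These counts therefore describe them and are no further test.

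**Figure D4:**
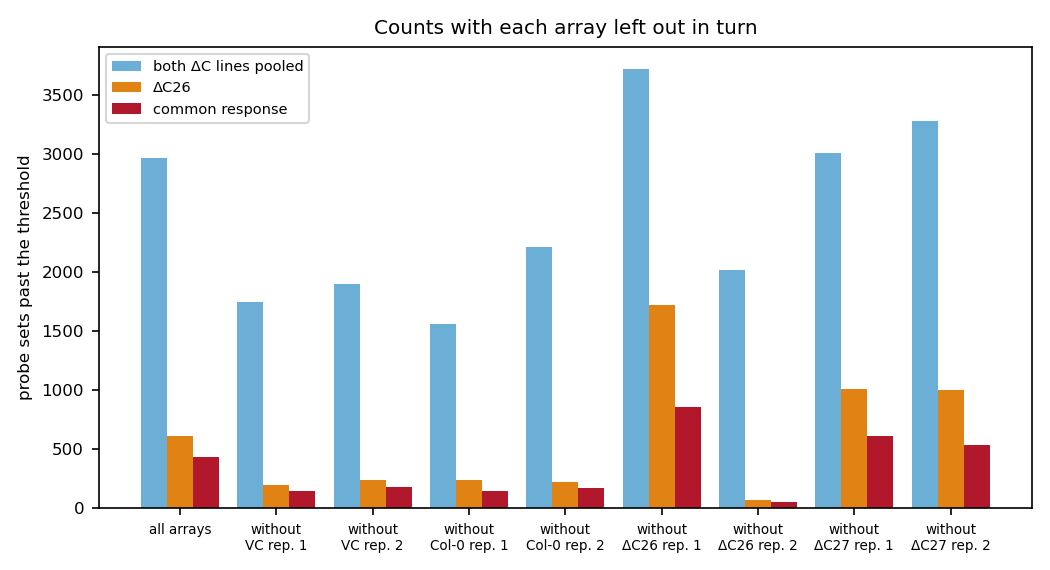
Number of probe sets past the threshold with all arrays and with each of the 8 arrays left out in turn, for both lines pooled, for ΔC26 alone and for the common response. The common response had 436 probe sets with all arrays, 54 without ΔC26 replicate 2 and 860 without ΔC26 replicate 1.

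Neighbouring genes were compared for position. Among 5813 pairs of protein-coding genes next to each other in the TAIR10.1 gene table with both genes measured, 4 pairs had both members in the common response with the same sign, all of them rises, and 1 pair had members with opposite signs. The 4 pairs were GSTU23 with GSTU22, AT2G18180 with AT2G18190, AT2G43660 with AT2G43670 and AT5G60520 with AT5G60530. They make up 3.51% of the 114 pairs whose first gene belonged to the common response. Of all named genes 1.73% belonged to it, with either sign, so the 2 shares are not like for like. Whether they differ was not tested, and 4 pairs are few. The last pairs were named after their values were seen: AT2G43660 and AT2G43670 rose by 0.64 and 0.89, and AT5G60520 and AT5G60530 by 0.76 and 1.42 on the log2 scale. Neighbours can be similar in sequence, and whether their probe sets read each other was not tested.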

How the data were processed

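Total RNA of seedlings was amplified from 200 ng, given a biotin label and put on Affymetrix arrays, per the labels' protocols. The deposited intensities are linear, as their range shows (3.68 to 12648, array medians 41.7 to 44.2). How the authors summarised, background-corrected and scaled these intensities is not given in the sources used here. Of 22810 probe sets, 64 control probe sets were left out. By the platform annotation, 13513 of the rest have 1 gene, 503 have several and 8730 have none. A locus of the TAIR10.1 table was found for 13436 of the first, through which symbols were updated.

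log2(intensity + 16) was fitted with limma 3.58.1 in R 4.3.3, with 1 mean per line, using the 10 arrays together (residual degrees of freedom: 5), moderated variances with an intensity trend and two-sided tests. A value below 16 occurred in 34.8% of cases. The number of arrays limits the precision. The fit was tried on simulated data with independent noise and the same change in both ΔC lines. Those data had no spread between lines, so the trial does not bear on it. Named genes were the 20 largest rises and 20 largest falls of the common response with exactly 1 gene, its 5 largest in each direction among the probe sets with a bright control mean, up to 4 members past the threshold from each list, and the 3 largest differences between ΔC26 and ΔC27 in each direction. Genes outside the rule are members of lists. For a gene on several probe sets the brightest was used. The members, the 21 lists and the 26 families were chosen with earlier results of these data known. Lists are described by counts and medians, without a test. Planned shares of promoters with sequence motifs were not analysed here. Alternatives tried were quantile normalization, a replicate block, centring on the median, leaving out the dimmest probe sets, no intensity trend, pseudocounts of 1 and 64, FL3 left out, each control line alone, a fit of 2 groups, line as a random block, a 2-fold minimum, separate controls and leaving out each of 8 arrays. Figures were drawn with matplotlib 3.10.9.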

Additional observations from a re-analysis of the deposited data

Results flagged for a closer look

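In the genes below, 24 chosen by the naming rule and 7 other list members, the change differed between ΔC26 and ΔC27 by the direct test (limma, Benjamini-Hochberg adjusted p under 0.05 over all probe sets). Values are the log2 level in ΔC26 minus that in ΔC27. Genes of the common rises that stood higher in ΔC27 were AT2G18190 (-1.65), AT2G18180 (-1.47), NDB3 (-1.45), AT2G04050 (-1.26), AT1G43910 (-1.26), AT2G20720 (-1.20) and AT2G41445 (-1.13).

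Other genes higher in ΔC27 were AT5G37140 (-1.89), AT4G26470 (-1.64), NDB4 (-0.90), EXPA4 (-0.747) and ATGSTF13 (-0.473), the last at intensities near the lower end of the scale. Of the common falls, WES1 was lower in ΔC26 (-0.896), while AT1G54740 (1.38), AT1G72060 (1.21) and AT1G19540 (1.21) were lower in ΔC27.

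Among genes outside the common response, AT1G66100 (3.28), PDF1.2b (2.86), ECS1 (2.66), LHCB4.2 (1.42), PDF1.4 (1.07), GH3.3 (0.913) and COR15A (0.835) were lower in ΔC27, and AT5G48570 (1.35) was higher in ΔC26. Of the other list members, XTH16 (1.61), COR15B (1.26), GSTU27 (0.936) and PSAN (0.805) were lower in ΔC27, and UGT76C2 (-1.04), UGT71C3 (-0.866) and PDF1A (-0.771) were higher there. The arrays of ΔC27 were also the least alike of any line, with a correlation of 0.971 between them. The part of this spread in the differences was not tested.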

How the results depend on the processing

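Without each array in turn the count ran from 1558 to 3723 for both lines pooled, 71 to 1727 for ΔC26, 2366 to 4134 for ΔC27, 109 to 1448 for ΔC26 against ΔC27 and 54 to 860 for the common response. A line with 1 array left was assumed to vary like the others. Against VC alone the counts were 1395 for both lines, 222 for ΔC26, 2522 for ΔC27 and 172 for the common response, and against Col-0 alone ΔC26 had 406. With FL3 left out of the fit they were 241 for ΔC26, 365 for ΔC26 against ΔC27 and 173 for the common response. The pooled count was 1033 in the fit of 2 groups, 660 with line as a random block, 346 at a 2-fold minimum (171 in the common response) and 128 with separate controls. With the replicate number as a block there were 377 calls in ΔC26, 446 in ΔC26 against ΔC27 and 270 in the common response. Same-numbered arrays did not deviate together, with correlations between lines from -0.2 to 0.0859, so the numbers were not taken as pairs. The other counts moved by less than 1.5 times, and the cause of these shifts was not tested. Of 86 named probe sets, 54 passed under all 20 settings, 32 lost the call in at least 1 and 0 changed sign.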
